A study of Mus musculus with 10 samples.

Results

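The genes described here serve MHC class I and lipid antigen presentation: B2m, H2-K1, H2-D1, Tap1, Tap2, Tapbp, Nlrc5, Mr1 and Cd1d1. They were taken by symbol from the annotated expression array, with the brightest probe set standing for a gene. Of the 9 listed genes, 7 had a probe set of their own and were tested, among 19937 named genes of which 13138 were tested. H2-K1 and H2-D1 were covered only by 2 probe sets that they share with the annotated locus LOC547349, so these genes are reported jointly.

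RNA came from thymocytes that carry both CD4 and CD8 (DP cells), sorted from individual mice of 8 weeks, and each of the 10 mice gave 1 array. In DKO mice (n = 3) E2A and HEB were both floxed (E2Aflox/flox HEBflox/flox cd4-cre+). HEBKO mice (n = 2) were HEBflox/flox cd4-cre+, E2AKO mice (n = 2) were E2Aflox/flox Cd4-cre+, and WT mice (n = 3) were wild-type cd4-cre+, so every group carried the Cre transgene. Cd4-cre is active from around the DP stage, so earlier thymocytes develop before the deletion is complete.

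Class I molecules consist of a heavy chain, such as those of H2-K1 and H2-D1, and the light chain β2-microglobulin, encoded by B2m. Peptides cut by the proteasome are carried into the endoplasmic reticulum by the transporter that Tap1 and Tap2 encode, and tapasin, encoded by Tapbp, holds the empty class I molecule next to it. Nlrc5 is a transactivator of class I genes. Mr1 and Cd1d1 encode class I-like molecules that also pair with β2-microglobulin: Mr1 presents vitamin B metabolites to MAIT cells and Cd1d1 presents lipids to NKT cells. DP thymocytes themselves display both molecules to developing MAIT and NKT cells. E2A and HEB are basic helix-loop-helix factors that bind E-box sequences.

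The 250 bases upstream of the start site are printed for H2-K1, H2-D1 and the genes called by limma in DKO against WT. They show which of the searched motifs the genes share and which they do not. The sequences are RefSeq's, from the GRCm38.p6 build, which is of strain C57BL/6J, while the strain and MHC haplotype of the mice were not given in the sources used here. Capitals mark an E-box (CANNTG), an interferon response core (GAAA, any 2 bases, GAAA) or a Y-box core (CCAAT), searched on both strands.
B2m, chr2:122147437-122147686, plus strand: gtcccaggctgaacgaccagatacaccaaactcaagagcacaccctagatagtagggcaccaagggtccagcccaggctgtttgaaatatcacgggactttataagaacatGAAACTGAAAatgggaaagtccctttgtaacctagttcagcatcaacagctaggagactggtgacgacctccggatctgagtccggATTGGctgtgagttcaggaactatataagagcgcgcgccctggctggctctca
H2-K1, chr17:34000348-34000597, minus strand: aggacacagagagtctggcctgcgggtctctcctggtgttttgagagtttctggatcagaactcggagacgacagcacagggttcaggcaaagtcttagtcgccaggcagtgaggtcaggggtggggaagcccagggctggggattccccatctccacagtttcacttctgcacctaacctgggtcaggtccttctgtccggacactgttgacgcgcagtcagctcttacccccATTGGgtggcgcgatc
H2-D1, chr17:35262844-35263093, plus strand: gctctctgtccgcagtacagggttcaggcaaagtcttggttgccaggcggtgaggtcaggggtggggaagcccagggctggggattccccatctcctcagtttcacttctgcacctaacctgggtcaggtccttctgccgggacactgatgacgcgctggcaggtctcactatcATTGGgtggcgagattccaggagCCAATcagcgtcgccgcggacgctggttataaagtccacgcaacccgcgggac
Tapbp, chr17:33919228-33919477, plus strand: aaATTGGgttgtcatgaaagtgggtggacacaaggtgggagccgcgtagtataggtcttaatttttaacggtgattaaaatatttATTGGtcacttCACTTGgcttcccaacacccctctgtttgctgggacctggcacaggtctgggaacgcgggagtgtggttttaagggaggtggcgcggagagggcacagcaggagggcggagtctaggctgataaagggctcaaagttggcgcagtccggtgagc
Mr1, chr1:155146815-155147064, minus strand: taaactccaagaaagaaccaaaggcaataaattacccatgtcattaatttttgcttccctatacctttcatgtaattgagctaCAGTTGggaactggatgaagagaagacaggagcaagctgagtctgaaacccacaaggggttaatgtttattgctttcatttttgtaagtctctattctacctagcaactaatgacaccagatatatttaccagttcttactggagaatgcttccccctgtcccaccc
The Mr1 window held 1 E-box (CAGTTG) and no Y-box core. The B2m, H2-K1 and H2-D1 windows held no E-box and 1, 1 and 2 Y-box cores. The Tapbp window held 1 E-box (CACTTG) and 2 Y-box cores. B2m alone among the printed windows held the interferon response core in the exact form searched. The H2-K1 and H2-D1 windows both held tttcacttc, which that form does not match, and looser forms were not searched. Over the 32851 promoters of the same length, 66.22% held an E-box, 33.85% a Y-box core and 2.98% the interferon response core. A second annotated start of H2-K1 held 2 Y-box cores, and the Tap1 window held 2 E-boxes (1 of them CAGGTG, found in 17.22% of promoters) and 1 Y-box core. These matches describe the letters in the windows only.

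Loss of both factors gave 3 called members among the 7 tested: B2m and Tapbp were higher and Mr1 was lower in DKO than in WT. Calls were made at an adjusted p under 0.05 in limma's fit over all 13138 tested genes, where 13.6% of genes were called in the same comparison, 8.18% higher and 5.41% lower. The members' median difference was 0.09 on the log2 scale, against -0.01 over all tested genes. In 3 of the 7 the DKO and WT arrays did not overlap, against 30% of all tested genes. The shared H2-K1 and H2-D1 probe sets and most probe sets of Nlrc5 were also higher in DKO, each described with its own values.

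**Figure D1:**
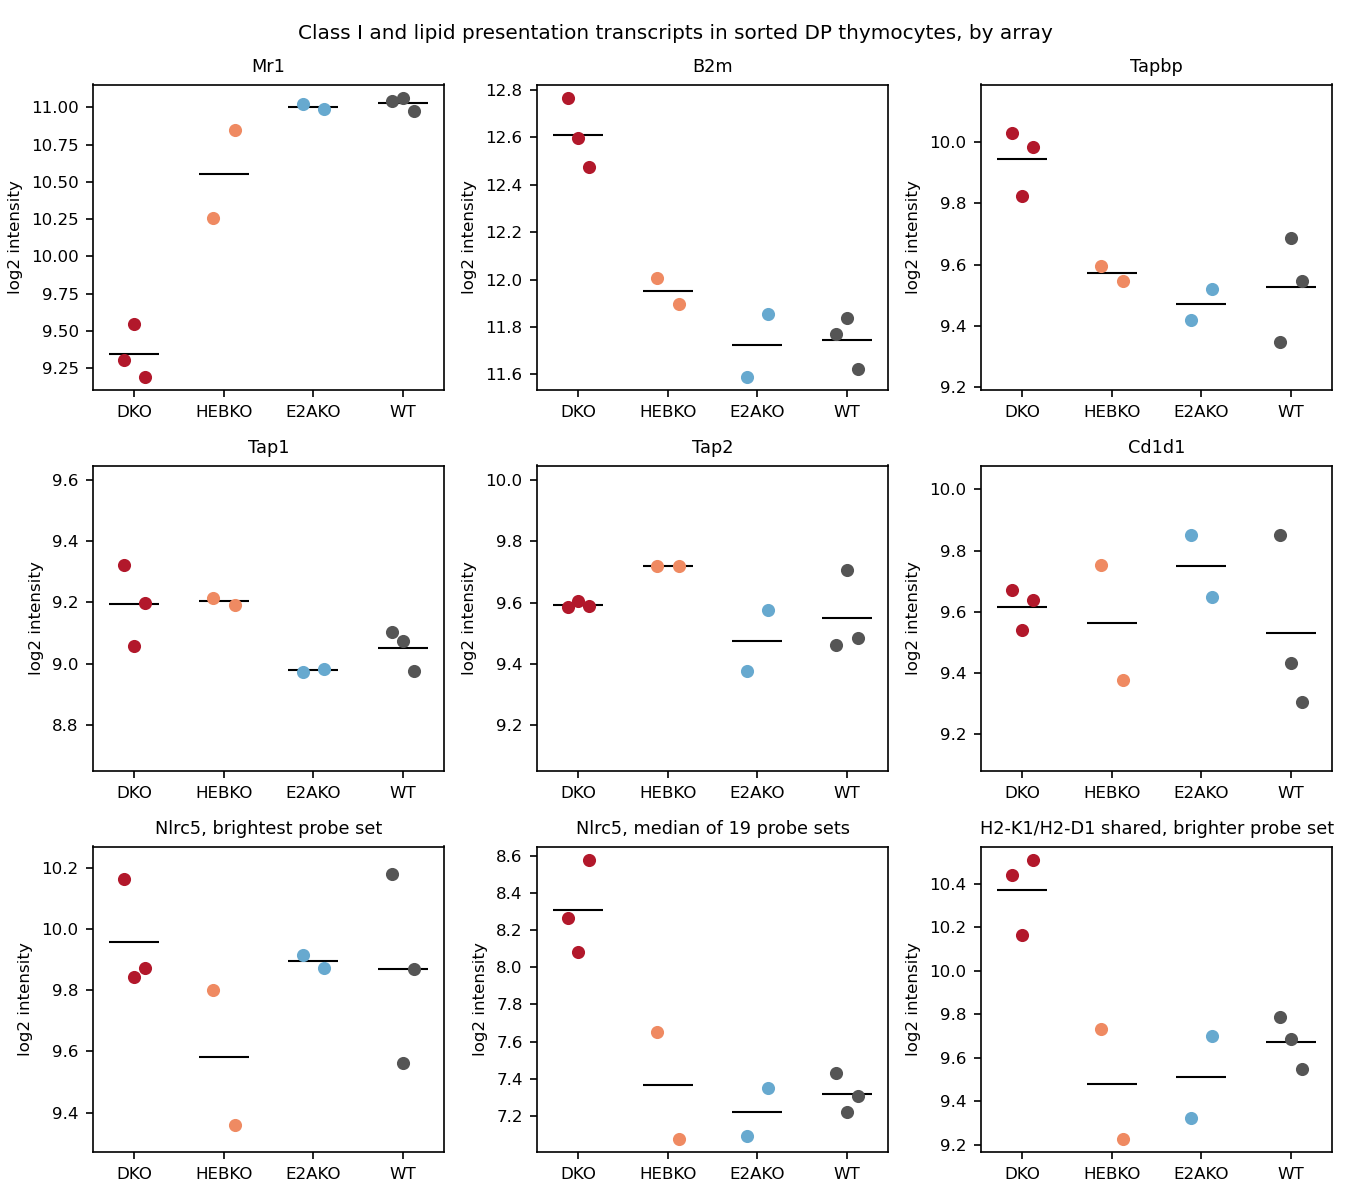
Log2 intensity of each gene on every array (points) with the group mean (line), for DKO (n = 3), HEBKO (n = 2), E2AKO (n = 2) and WT (n = 3), each panel on its own scale. The 3 DKO arrays lie below all others for Mr1 and above all others for B2m, Tapbp, the Nlrc5 median and the brighter shared H2-K1 and H2-D1 probe set, and DKO and WT overlap for Tap1, Tap2, Cd1d1 and the brightest Nlrc5 probe set.

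Facts of the whole series bear on these values. The median intensity of an array ran from 92.6 to 98.6. Tcf3, which encodes E2A, was at 63.5% of the WT geometric mean in DKO and at 68.9% in E2AKO. Tcf12, which encodes HEB, was at 45.8% in DKO and at 69.6% in HEBKO. Both were called lower in DKO than in WT (adjusted p 0.00256 and 3.07e-05). Tcf3 in E2AKO (adjusted p 0.998) and Tcf12 in HEBKO (adjusted p 0.0657) lay below every WT array without a call. Tcf3 was at 126% of WT in HEBKO, also uncalled (adjusted p 0.216). Tcf12 was called lower in DKO than in HEBKO (-0.61 ± 0.12, adjusted p 0.0136). Whether these probe sets lie in the deleted exons is not given in the sources used here. All 11 DP markers on the array (Cd4, Cd8a, Rag1 and others) were above the 40th percentile on every array, and 7 of them were called lower in DKO. Their summed intensity was 31833 to 36058 in DKO, 41116 in HEBKO 1 and 52103 in HEBKO 2, 53713 to 55356 in E2AKO and 55517 to 56962 in WT. All 8 tested markers of mature T cells (Il7r, Ccr7, S1pr1, Klf2, Ms4a4b, Gimap3, Gimap4 and Itgb7) were called higher in DKO, with a median difference of 2.63 on the log2 scale. Their sum was 4649 to 6604 in DKO, 1924 in HEBKO 1 and 941 in HEBKO 2, 854 to 1176 in E2AKO and 930 to 1018 in WT. The part of these shifts in the results below was not tested, and in sorted bulk RNA a different mix of cells and a different amount of RNA per cell cannot be told apart. Markers of macrophages (7 of 9), dendritic cells (4 of 10), B cells (3 of 7) and thymic epithelium (2 of 13) were below the 40th percentile on every array, among them Adgre1, Csf1r, Itgax, Cd79a, Ms4a1 and Psmb11. In the same order, 2, 3, 2 and 6 markers were at or above it on every array. Itgam, Cd79b, Cldn4 and Epcam were called lower in DKO than in WT, Cd79b not without DKO 3. None of these lists had a higher summed intensity in DKO than the WT range: macrophage markers summed to 445 to 495 in DKO and 494 to 565 in WT, dendritic cell markers to 646 to 731 in DKO and 720 to 842 in WT, B cell markers to 459 to 522 in DKO and 595 to 623 in WT, and thymic epithelial markers to 1429 to 1557 in DKO and 1829 to 1969 in WT. Erythroid markers summed to 971 to 1053 in DKO and 828 to 1082 in WT.

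B2m, whose product every class I molecule needs, rose in DKO. Its intensity was 6956, 6188 and 5687 in DKO, 4121 and 3815 in HEBKO, 3085 and 3701 in E2AKO, and 3495, 3657 and 3155 in WT. All 3 DKO arrays were above all 7 others, HEBKO was next, and E2AKO and WT overlapped. The log2 mean was 12.61 ± 0.15 in DKO (SD, n = 3) and 11.74 ± 0.11 in WT (SD, n = 3), a difference of 0.87 ± 0.11 (SE) with a 95% interval of 0.63 to 1.11 and an adjusted p of 0.000302. The DKO geometric mean was 182% of WT. The call held under every one of 19 other ways of processing, with differences of 0.79 to 0.94. B2m was also higher in DKO than in HEBKO by 0.66 ± 0.12 (adjusted p 0.0123), a call lost without HEBKO 2 (0.60, adjusted p 0.111), and higher in DKO than in E2AKO by 0.89 ± 0.12 (adjusted p 0.000853). HEBKO minus WT was 0.21 ± 0.12 (adjusted p 0.434) and E2AKO minus WT was -0.02 ± 0.12. Both HEBKO arrays were above the WT arrays without a call, and E2AKO and WT did not differ beyond the spread of their arrays.

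The classical heavy chains H2-K1 and H2-D1, read jointly, were also higher in DKO. The brighter shared probe set (10444780) had intensities of 1388, 1148 and 1455 in DKO, 850 and 599 in HEBKO, 640 and 832 in E2AKO, and 882, 823 and 748 in WT, with every DKO array above every other. The dimmer one (10450075) had 826, 481 and 682 in DKO, 497 and 308 in HEBKO, 309 and 332 in E2AKO, and 344, 409 and 313 in WT. There DKO stood above WT, but HEBKO 1 lay above DKO 2. DKO exceeded WT by 0.70 ± 0.15 (adjusted p 0.0121) and 0.87 ± 0.21 (adjusted p 0.0188), in a fit over 15020 probe sets of which 14.1% were called in DKO against WT, 8.97% higher. Both calls were lost without DKO 3 (0.63, adjusted p 0.0552, and 0.84, adjusted p 0.0677) and without WT 3 (0.63, adjusted p 0.0590, and 0.79, adjusted p 0.0826). That of the dimmer probe set was also lost without DKO 1 (0.70, adjusted p 0.0638) and without WT 1 (0.85, adjusted p 0.0604). Against HEBKO only the brighter probe set was called (0.89, adjusted p 0.0192), and the call was lost without DKO 1, DKO 3 or HEBKO 2 (adjusted p 0.0595, 0.0785 and 0.173). Against E2AKO both were called (0.86 and 1.01, adjusted p 0.0103 and 0.0213), but neither was without E2AKO 1 (adjusted p 0.112 and 0.130), and the dimmer one was not without E2AKO 2, DKO 1 or DKO 3 either (adjusted p 0.0970, 0.0606 and 0.0669). No shared probe set was called in HEBKO or E2AKO against WT.

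Among other class I heavy chain genes, those called in DKO against WT by a probe set of their own were lower in DKO. Of 18 listed, 10 had their own probe set and 7 passed the filter on low values. None of the 7 was called higher in DKO than in WT, 3 were called lower and 4 were not called. The list also holds the class I-like gene Cd1d2, which was called higher without DKO 1, E2AKO 1 or E2AKO 2. It was also called with arrays shifted to 1 median, with weights for arrays, with the replicate block or with only the groups compared. The 3 lower ones were H2-Q2, H2-Q4 and H2-Q5, of the Qa region next to H2-D1 on chromosome 17. H2-Q2 had log2 intensities of 9.09, 9.46 and 8.70 in DKO, 10.37 and 10.29 in HEBKO, 10.05 and 10.24 in E2AKO, and 10.22, 10.33 and 10.24 in WT, so the DKO arrays were below all others, and HEBKO and E2AKO overlapped WT. DKO minus WT was -1.18 ± 0.16 (adjusted p 0.000399), and H2-Q2 was also lower in DKO than in HEBKO (-1.25, adjusted p 0.00221) and in E2AKO (-1.06, adjusted p 0.00257). H2-Q5 fell by 0.60 ± 0.11 in DKO (adjusted p 0.00269). H2-Q4 differed by -0.60 ± 0.17 (adjusted p 0.0374), but the call was lost without DKO 2, DKO 3, either E2AKO array or any WT array (-0.79 to -0.42, adjusted p up to 0.143). Qa genes are close copies of each other and of the classical genes, so their probes may share signal. H2-M3, which presents formylated peptides, was not called against WT (0.27 ± 0.11, adjusted p 0.159) and was called higher in DKO than in E2AKO (0.53, adjusted p 0.0223), which was lost without DKO 1, DKO 3 or E2AKO 1 (adjusted p up to 0.239). Of 5 further probe sets shared among class I genes, 1 was called in DKO against WT, that of H2-T23 and H2-T-ps (0.34 ± 0.09, adjusted p 0.0223).

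Among the loading genes, Tapbp was higher in DKO, while Tap1 and Tap2 were not called. Tapbp had log2 intensities of 10.03, 9.83 and 9.98 in DKO, 9.60 and 9.55 in HEBKO, 9.42 and 9.52 in E2AKO, and 9.35, 9.69 and 9.55 in WT. The 3 DKO arrays were above the 7 others, and HEBKO and E2AKO lay within the WT range. DKO minus WT was 0.42 ± 0.11 (adjusted p 0.0218), 134% of the WT geometric mean. The call was lost without DKO 1 (0.38, adjusted p 0.0734), DKO 3 (0.40, adjusted p 0.0806), WT 1 (0.33, adjusted p 0.0735) or WT 3 (0.43, adjusted p 0.0696). Tapbp was also higher in DKO than in E2AKO (0.48 ± 0.12, adjusted p 0.0261), which was lost without DKO 1, DKO 3, E2AKO 1 or E2AKO 2 (adjusted p 0.0805, 0.0840, 0.174 and 0.0891). Against HEBKO the difference was 0.37 ± 0.12 (adjusted p 0.123). Of the 3 probe sets that name Tapbp, 10421908 and 10499121 are brighter and also name Rps3a1, so they do not read Tapbp alone. In the fit over probe sets they were called higher in DKO than in WT (0.52 and 0.42, adjusted p 0.00988 and 0.0360). Neither was called against E2AKO (0.37 each, adjusted p 0.0959 and 0.107) or HEBKO (0.24 and 0.19, adjusted p 0.419 and 0.618).

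Tap1 had log2 intensities of 9.32, 9.06 and 9.20 in DKO, 9.21 and 9.19 in HEBKO, 8.97 and 8.98 in E2AKO, and 9.10, 9.07 and 8.98 in WT. DKO 2 lay within the WT range. DKO minus WT was 0.14 ± 0.09, with a 95% interval of -0.06 to 0.35 (adjusted p 0.385). Tap2 had 9.59, 9.61 and 9.59 in DKO, 9.72 and 9.72 in HEBKO, 9.38 and 9.58 in E2AKO, and 9.46, 9.71 and 9.48 in WT, with DKO inside the WT range. Its difference was 0.04 ± 0.10, with an interval of -0.17 to 0.26 (adjusted p 0.835).

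**Figure D2:**
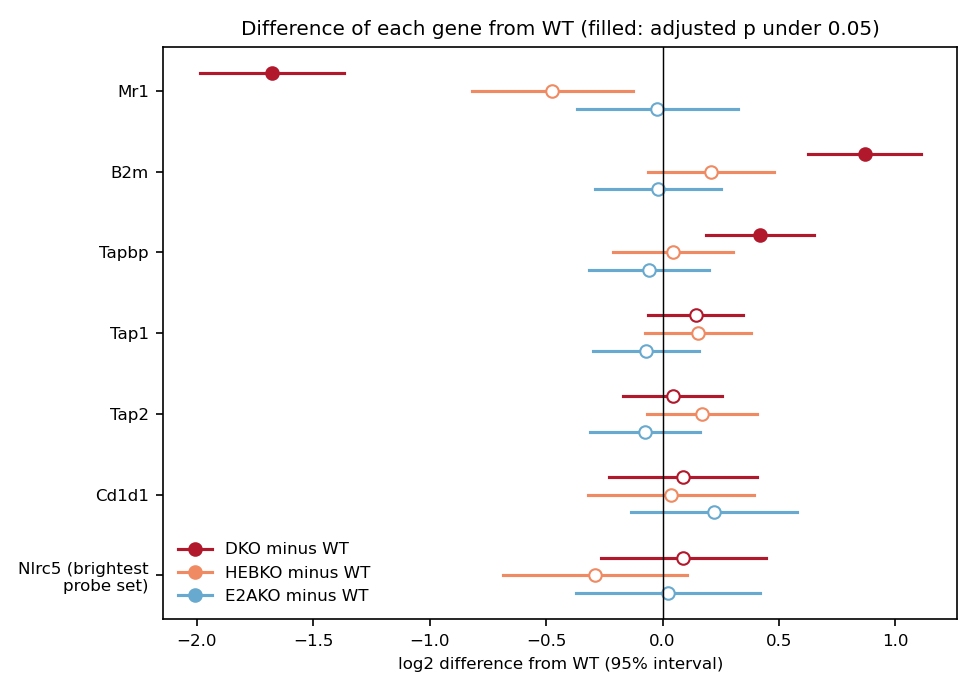
Log2 difference from WT of each gene's brightest probe set (points) with its 95% interval (lines) in DKO, HEBKO and E2AKO, filled where the adjusted p was under 0.05. The filled points are the DKO differences of Mr1 (-1.68), B2m (0.87) and Tapbp (0.42).

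Of 15 genes that supply and load peptides, all tested, 3 were called higher in DKO than in WT, 1 was called lower and 11 were not called, and their median difference was 0.21. The higher calls numbered 1 without DKO 2, DKO 3 or WT 3 and 6 without WT 2. Psme2, a subunit of the proteasome activator PA28, was at 8.85, 8.68 and 8.80 in DKO, 8.27 and 8.34 in HEBKO, 7.93 and 8.11 in E2AKO, and 7.74, 8.23 and 7.80 in WT. Each DKO array was above the others, and the difference from WT was 0.85 ± 0.13 (adjusted p 0.000935). The partner subunit Psme1 differed by 0.40 ± 0.11 (adjusted p 0.0350), a call lost without any 1 of the DKO arrays, without WT 3 (adjusted p up to 0.160) and after renewed quantile normalization. The chaperone gene Hspa5 differed by 0.37 ± 0.10 (adjusted p 0.0258), which was lost without DKO 2, DKO 3, WT 1 or WT 3 (adjusted p up to 0.123). In HEBKO it differed from WT by 0.33 ± 0.11 without a call (adjusted p 0.154), and DKO minus HEBKO was 0.04. Tapbpl, a tapasin-related peptide editor, fell by 0.58 ± 0.11 (adjusted p 0.00428). The immunoproteasome genes Psmb8, Psmb9 and Psmb10, of which the first pair flank Tap1, differed by 0.36, 0.32 and 0.32 and were not called against WT (adjusted p 0.187, 0.0522 and 0.0939). In HEBKO they differed from WT by 0.49, 0.32 and 0.31, also without a call (adjusted p 0.208, 0.186 and 0.246). DKO minus HEBKO was -0.13, 0.008 and 0.004, so these shifts were not particular to DKO. Psmb9 was called higher in DKO than in E2AKO (0.55, adjusted p 0.00945), but not without E2AKO 2 (adjusted p 0.0878). Its HEBKO minus E2AKO difference was 0.54 without a call (adjusted p 0.0987).

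Nlrc5, the class I transactivator, read differently by its brightest probe set and by the rest of its probe sets. The brightest one (10574100) had intensities of 1146, 918 and 937 in DKO, 893 and 657 in HEBKO, 965 and 938 in E2AKO, and 1160, 756 and 936 in WT. The groups overlapped, and DKO minus WT was 0.09 ± 0.16 (adjusted p 0.793). The array carries 19 probe sets for Nlrc5, all of which passed the filter, and 17 were called higher in DKO, none lower, against the 8.97% of all tested probe sets called higher. The exceptions were the brightest and 10574153 (0.18 ± 0.10, adjusted p 0.294). Of the 19, 5 were below the 40th percentile on at least 1 array. Among these, 10574135 was below it on 6 arrays and reached it outside DKO only on HEBKO 1. It therefore passed the filter through its high DKO arrays, and its call is no separate support. Without the filter the count was also 17 of 19. The differences between DKO and WT over the 19 probe sets ran from 0.09 to 2.15 with a median of 1.08. Probe sets of 1 gene read the same RNA extracts and are not replicates. Probe sets were compared in this way after the brightest had been seen to differ from the rest.

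The second brightest probe set (10574149) had intensities of 983, 596 and 879 in DKO, 361 and 160 in HEBKO, 184 and 231 in E2AKO, and 254, 175 and 180 in WT, a difference from WT of 2.00 ± 0.28 (adjusted p 0.000842). DKO stood above every other array and HEBKO 1 above the rest. The largest difference was at 10574145, with 307, 196 and 355 in DKO, 73.2 and 54.1 in HEBKO, 53.0 and 87.8 in E2AKO, and 64.9, 57.5 and 65.1 in WT (2.15 ± 0.23, adjusted p 0.000158), where 5 arrays were below the 40th percentile. The median of the 19 log2 values was 8.26, 8.08 and 8.58 in DKO, 7.65 and 7.08 in HEBKO, 7.09 and 7.35 in E2AKO, and 7.43, 7.22 and 7.31 in WT. Taken as the gene's level, that median was higher in DKO by 0.99 (adjusted p 0.00165), and the mean of the probe sets by 1.11 (adjusted p 0.000489). The levels of DKO did not overlap with those of any other group.

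No Nlrc5 probe set was called in HEBKO or E2AKO against WT, where the differences ran from -0.29 to 0.32 and from -0.32 to 0.13, and where 0.772% and 0% of all probe sets were called. Against HEBKO, 16 of 19 were called higher in DKO, and against E2AKO 17 of 19, set beside 1.89% and 5.39% of all probe sets called higher. The first count was 10 without DKO 1, 7 without DKO 3 and 5 without HEBKO 2, and the second was 9 without E2AKO 1. The count against WT was 15 to 17 with each array left out in turn.

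**Figure D3:**
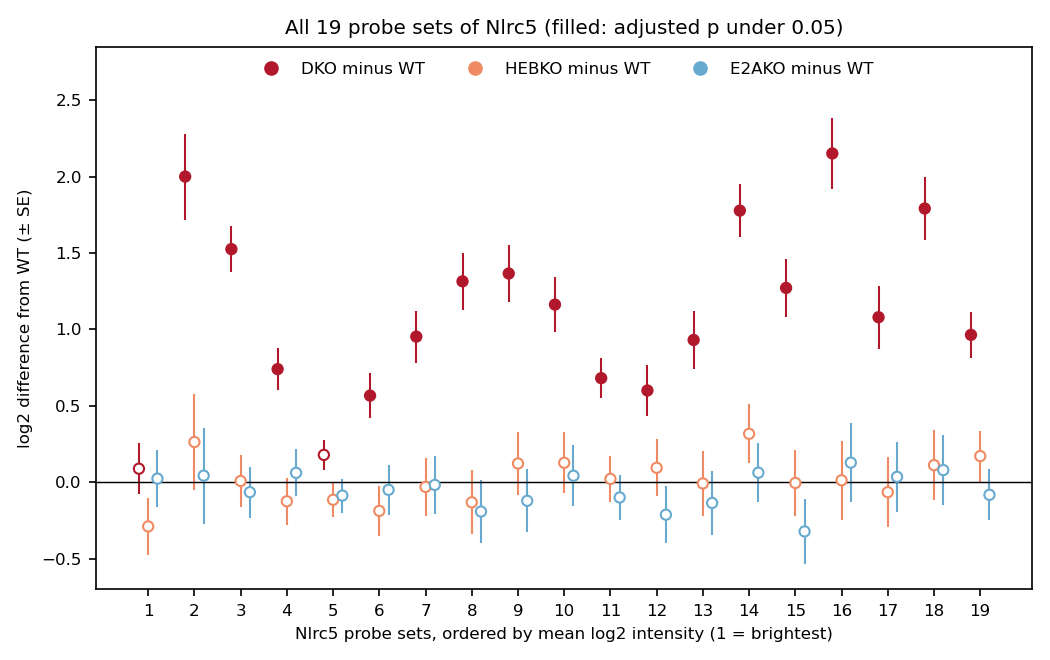
Log2 difference from WT (± SE) of each of the 19 Nlrc5 probe sets, ordered from the brightest (1) to the dimmest (19), in DKO, HEBKO and E2AKO, filled where the adjusted p was under 0.05. In DKO 17 points are filled and lie between 0.57 and 2.15, and the open ones are the brightest and the fifth.

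Of 17 factors of class I and class II promoters, 15 were tested, 2 were called higher and 2 lower in DKO than in WT and 11 were not called, with a median difference of -0.08. Irf1, an interferon-induced activator of class I promoters, was at 9.30, 9.03 and 9.29 in DKO, 8.78 and 8.69 in HEBKO, 8.55 and 8.64 in E2AKO, and 8.57, 8.72 and 8.62 in WT. The DKO arrays were above all others, and the difference was 0.57 ± 0.10 (adjusted p 0.00270), which was lost where the mean of the gene's probe sets stood for it (0.29, adjusted p 0.0768). Irf9 differed by 0.63 ± 0.19 (adjusted p 0.0456), lost without DKO 1, DKO 3, either E2AKO array, WT 1 or WT 3 and in 3 other settings (adjusted p up to 0.192). Rfx5, a subunit of the complex through which Nlrc5 acts on class I promoters, differed by -0.53 ± 0.13 (adjusted p 0.0168), lost without DKO 2 or DKO 3 (adjusted p up to 0.0590). Its partner Rfxank differed by -0.35 ± 0.09 (adjusted p 0.0192), lost without any 1 of the DKO arrays or WT 3 (adjusted p up to 0.0689).

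Among 19 interferon-stimulated genes, 15 were tested and 2 were called higher in DKO, with a median difference of 0.30. Ddx58, an RNA sensor, rose by 0.59 ± 0.11 (adjusted p 0.00452). Ifit1 differed by 1.18 ± 0.35 (adjusted p 0.0419), with DKO 1 apart at 8.08 and the other DKO arrays at 6.60 and 6.22. Without DKO 1 the difference was 0.62 and the call was kept (adjusted p 0.0116), and the call was lost without any 1 of the HEBKO, E2AKO or WT arrays (adjusted p up to 0.127). The list's summed intensity was 4467 in DKO 1, 2929 in DKO 2 and 3054 in DKO 3, 2810 and 2831 in HEBKO, 2521 and 2630 in E2AKO, and 2607, 2811 and 2620 in WT. Without DKO 1, the difference between DKO and WT was 0.38 for Tapbp (adjusted p 0.0734), against 0.42 with it, and B2m stayed called. The sums of DKO 2 and DKO 3 were also above those of every HEBKO, E2AKO and WT array. Leaving out DKO 1 therefore does not take the raised sum away, and a part of interferon in these differences was not tested.

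Of 10 MHC class II genes, 5 were tested and 1, H2-Oa, was called higher in DKO (0.49 ± 0.13, adjusted p 0.0331), which was lost without DKO 1, DKO 3, WT 2 or WT 3 (adjusted p up to 0.128). H2-Aa, H2-Eb2 and Cd74 were below the 40th percentile on every array. The list summed to 702 to 785 in DKO, 627 to 696 in HEBKO, 600 to 673 in E2AKO and 640 to 699 in WT.

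Mr1 moved the opposite way to B2m, with which its product pairs. Its intensity was 632, 748 and 586 in DKO, 1226 and 1844 in HEBKO, 2081 and 2029 in E2AKO, and 2109, 2135 and 2017 in WT. DKO was lowest on every array, both HEBKO arrays lay between DKO and the rest, and E2AKO overlapped WT. The log2 mean was 9.35 ± 0.18 in DKO (SD, n = 3) and 11.03 ± 0.04 in WT (SD, n = 3), a difference of -1.68 ± 0.14 with a 95% interval of -1.99 to -1.37 (adjusted p 1.70e-05). The DKO geometric mean was 31.2% of WT, and the call held under all 19 alternatives, at -1.78 to -1.58. Mr1 was also lower in DKO than in HEBKO (-1.21 ± 0.16, adjusted p 0.00140) and than in E2AKO (-1.66 ± 0.16, adjusted p 7.00e-05).

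In HEBKO, Mr1 stood at 72.0% of the WT geometric mean. The difference from WT was -0.47 ± 0.16 (unadjusted p 0.0116, adjusted p 0.164), and it was called without HEBKO 2 (-0.77, adjusted p 0.0468) and was -0.18 without HEBKO 1. HEBKO 1, with the lower Mr1, also had the lower summed DP markers and the higher summed mature T cell markers of the pair, as given above. E2AKO minus WT was -0.02 ± 0.16. HEBKO minus E2AKO was -0.45 ± 0.17 (unadjusted p 0.0236, adjusted p 0.246). In the order of levels WT, E2AKO, HEBKO and DKO, the arrays of WT and E2AKO overlapped, those of HEBKO lay below both without a call, and those of DKO lay below HEBKO with one.

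Like profiles were sought among tested genes outside the members, with symbols of clones and predicted genes passed over. Those most like Mr1 over the 10 arrays were Rag1, the recombinase gene, Gpr162 and Ets2. Their root mean square differences from Mr1's centred log2 profile were 0.09, 0.10 and 0.12, and Mr1's own spread around its mean was 0.74. Rag1 is one of the DP markers above and differed between DKO and WT by -1.64 (adjusted p 4.92e-05). For B2m the nearest were Prkch, a protein kinase C gene, S1pr4, a sphingosine phosphate receptor, and Rras2, a small GTPase (0.10, 0.11 and 0.11, against a spread of 0.40). For Tapbp they were Mfng, a glycosyltransferase gene that acts on Notch, Rgs19, a regulator of G protein signalling, and Tspyl3 (0.05, 0.07 and 0.07, against 0.22). These are descriptions over 10 arrays that share the contrast between DKO and the rest.

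The gene next to Mr1 on chromosome 1 in the order of tested genes, Stx6, which encodes the SNARE protein syntaxin 6, was also lower in DKO, by -1.32 ± 0.11 (adjusted p 1.32e-05). In HEBKO it was called lower (-0.62 ± 0.12, adjusted p 0.0397), but this was lost in 11 of 19 alternatives, among them without HEBKO 1 (-0.42), without any 1 of the DKO or E2AKO arrays, WT 1 or WT 3 (adjusted p up to 0.292). On the other side, Ier5 differed by 0.02 ± 0.09 (adjusted p 0.910) and Cacna1e, a calcium channel gene, fell by 1.79 ± 0.29 (adjusted p 0.00167). Over the 49 distinct tested genes within 3 places of a member, 3 were called higher and 6 lower in DKO, with a median of 0.01. Over all tested genes 8.18% were called higher and 5.41% lower in this comparison. The higher ones were Herpud1 (0.59 ± 0.10, adjusted p 0.00240), an endoplasmic reticulum stress gene near Nlrc5, the clone 9330175E14Rik beside it (0.48, adjusted p 0.0268, lost without any 1 of the DKO arrays, WT 2 or WT 3) and Wdr46 near Tapbp (0.61 ± 0.11, adjusted p 0.00267). The lower ones were Stx6, Cacna1e, Dclk2 near Cd1d1 (-0.62 ± 0.11, adjusted p 0.00248) and the 3 Qa genes. None of the neighbours of B2m, Tap1 or Tap2 was called in DKO against WT.

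Cd1d1 was not called in any comparison. Its log2 intensity was 9.67, 9.54 and 9.64 in DKO, 9.75 and 9.38 in HEBKO, 9.85 and 9.65 in E2AKO, and 9.85, 9.43 and 9.30 in WT. All groups overlapped, and WT spread the widest. DKO minus WT was 0.09 ± 0.15, with a 95% interval of -0.23 to 0.41 (adjusted p 0.770), so a change of the size seen at Mr1 lay outside the interval. The neighbouring copy Cd1d2 differed from WT by 0.49 ± 0.16 in DKO (adjusted p 0.0623, called in the settings named above). The difference from WT was 0.40 ± 0.18 in HEBKO (adjusted p 0.283) and 0.56 ± 0.18 in E2AKO (adjusted p 0.998). Every DKO, HEBKO and E2AKO array was above every WT array for Cd1d2. Probes for such close copies may share signal.

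Genes of lipid loading and lysosomal lipid handling changed in both directions. Of 17 listed, 16 were tested, of which 3 were called higher and 5 lower in DKO than in WT and 8 were not called, with a median of -0.12. The lower calls numbered 2 without DKO 2, DKO 3 or WT 1 and 3 without DKO 1 or WT 2. The calls of the adaptor gene Ap3s1 (-0.35), the cholesterol transporter gene Npc1 (-0.32) and the lysosomal lipase gene Lipa (-0.46) were lost in 11, 7 and 3 of 19 alternatives, and those of Psap and Ugcg in none. Gm2a, the GM2 ganglioside activator, was at 10.57, 10.38 and 10.60 in DKO, 9.46 and 9.05 in HEBKO, 8.42 and 8.61 in E2AKO, and 8.64, 8.58 and 8.46 in WT. DKO was above HEBKO, and HEBKO above E2AKO and WT, on every array. The DKO difference from WT was 1.96 ± 0.12 (adjusted p 1.89e-06), and the HEBKO one was 0.70 ± 0.14 (adjusted p 0.0397), called in 8 of 19 alternatives and not without HEBKO 1 (0.49) nor without any 1 of the DKO or E2AKO arrays, WT 1 or WT 3 (adjusted p up to 0.292). The sterol carrier gene Npc2 rose by 1.21 ± 0.09 in DKO (adjusted p 6.04e-06) and the cathepsin S gene Ctss by 1.55 ± 0.19 (adjusted p 0.000259), where 2 of the WT arrays were below the 40th percentile. Psap, which encodes the saposins that exchange lipids on CD1d, was at 12.34, 12.32 and 12.26 in DKO, 12.51 and 12.57 in HEBKO, 12.73 and 12.68 in E2AKO, and 12.77, 12.78 and 12.76 in WT. It fell by 0.47 ± 0.08 in DKO (adjusted p 0.00259), and Ugcg, the glucosylceramide synthase gene, fell by 0.58 ± 0.10 (adjusted p 0.00341). In the interaction, DKO minus HEBKO exceeded E2AKO minus WT by 1.30 for Gm2a (adjusted p 0.00874, lost without E2AKO 1) and by 1.10 for Npc2 (adjusted p 0.00390).

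**Figure D4:**
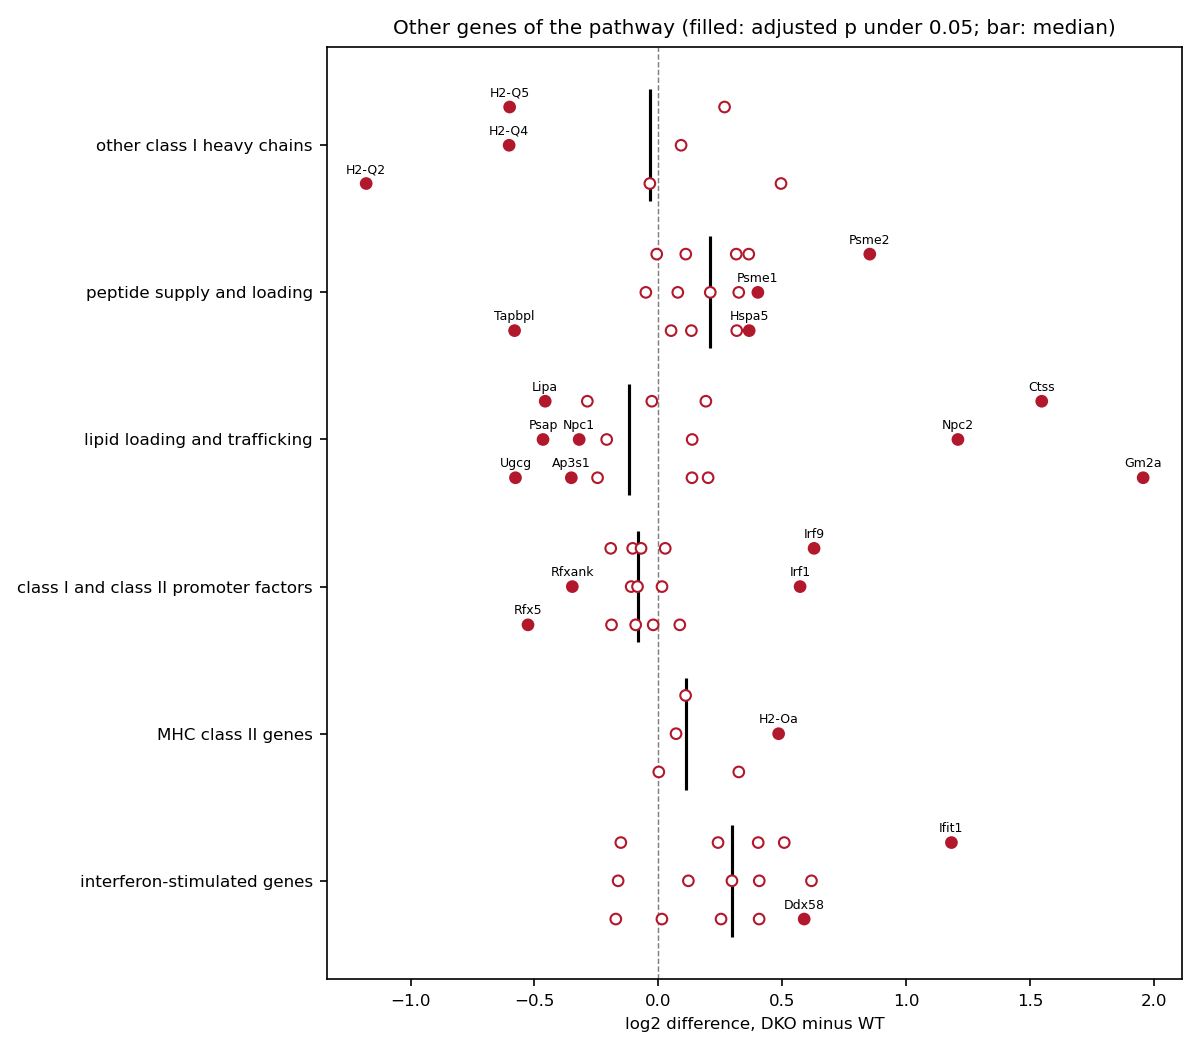
Log2 difference between DKO and WT of each tested gene in 6 lists around antigen presentation (points, filled and named where the adjusted p was under 0.05), with the list median as a bar and 0 as a dashed line. The farthest points are Gm2a at 1.96 on the right and H2-Q2 at -1.18 on the left.

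Loss of 1 factor alone called no member. In HEBKO against WT none of the 7 was called by limma, with 1 at an unadjusted p under 0.05 (Mr1), while 0.906% of all genes were called. In E2AKO against WT none was called and none had an unadjusted p under 0.05, while 0% of all genes were called and 418 of 13138 had an unadjusted p under 0.05. These comparisons and that of DKO share the WT arrays. Between DKO and HEBKO 2 members were called, B2m higher and Mr1 lower, while 3.63% of all genes were called, 2.15% higher and 1.48% lower. Between DKO and E2AKO 3 were called, B2m and Tapbp higher and Mr1 lower, while 9.07% of all genes were called, 5.1% higher and 3.97% lower. Between HEBKO and E2AKO none was called (0.0381% of all genes), with Mr1 at an unadjusted p of 0.0236.

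The interaction asked whether loss of E2A had another effect where HEB was missing than where it was present, and 1 member was called (0.632% of all genes). DKO minus HEBKO stands here for the loss of E2A without HEB. Tcf12 was also lower in DKO than in HEBKO (-0.61 ± 0.12, adjusted p 0.0136). Its intensity was 1645 to 1695 in DKO, and 2271 and 2854 in HEBKO. The contrast thus differs in Tcf12 RNA as well, and the part of this was not tested. For Mr1, loss of E2A changed the log2 level by -1.21 without HEB and by -0.02 with HEB, a difference of -1.18 ± 0.22 (adjusted p 0.0400). The call was lost without any 1 array other than DKO 2 and HEBKO 1 (values of -1.20 to -0.89, adjusted p up to 0.184). For B2m the same quantities were 0.66 and -0.02, a difference of 0.68 ± 0.18 (unadjusted p 0.00232, adjusted p 0.151), and for Tapbp they were 0.37 and -0.06, a difference of 0.43 ± 0.17 (unadjusted p 0.0244, adjusted p 0.456).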

How the data were processed

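Each array held the RNA of DP thymocytes of 1 mouse. The deposited values are intensity values per probe set on a linear scale, made with RMA per the submitters' processing notes, with the RMA version and scan batches not given in the sources used here. Here log2 of each value was used, without a constant. Of 34760 probe sets, 21640 named 1 gene, 1321 several and 11799 none, and the brightest of the first kind stood for each of 19937 genes. A gene was tested if it reached the 40th percentile of the array on at least 2 arrays. limma 3.58.1 in R 4.3.3 fitted 1 mean per genotype to all 10 arrays with empirical Bayes moderation, and 7 contrasts were taken. Each p is two-sided, with Benjamini-Hochberg adjustment over all 13138 genes, or 15020 probe sets where probe sets were tested, and calls were made at an adjusted p under 0.05. An error beside a difference is the SE of the fit. The steps were tested on simulated data. The number of arrays limits the precision.

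The members, gene lists and motifs were chosen with earlier results of these data known. Genes named are all members, Tcf3 and Tcf12, up to 5 genes of a list with the largest DKO minus WT difference among those called in any contrast, the markers that define other cell types, the 3 nearest profiles and the 3 tested neighbours on each side of a member. RefSeq tables for GRCm38.p6 gave neighbours and promoters, with promoters for 6 of the 9 members. Alternatives were leaving the filter out or raising it to the 60th percentile, quantile normalization once more, shifting arrays to 1 median, averaging a gene's probe sets, limma's trended and robust prior (statmod 1.5.0), weights for arrays, the replicate number as a block, only the groups compared, and each array left out. The probe set tests and the Nlrc5 median were chosen after seeing the data.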

Additional observations from a re-analysis of the deposited data

Results flagged for a closer look

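The interaction term of limma, for the effect of E2A loss without HEB against that with HEB, was called for Mr1 in the gene fit. There 0.632% of all genes were called. In the probe set fit Mr1 was not called (adjusted p 0.0595). In that fit 3 of the 19 Nlrc5 probe sets were called higher, where 0.353% of all tested probe sets were called in that direction. DKO and HEBKO, whose difference stands for E2A loss without HEB, also differed in Tcf12, as given above. For Mr1 the difference of the effects was -1.18 on the log2 scale. Among the Nlrc5 probe sets it was 1.58 at 10574102 (adjusted p 0.0161), lost in 3 of 17 alternatives, among them without HEBKO 2 and without E2AKO 1 (1.38 to 1.78 over its alternatives, adjusted p up to 0.119). It was 1.64 at 10574098 and 2.01 at 10574145 (both adjusted p 0.0444), each lost in 11 of 17 alternatives (1.34 to 1.93 and 1.65 to 2.38, adjusted p up to 0.231 and 0.206).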

How the results depend on the processing

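Differences of B2m and Mr1 between DKO and WT kept their direction and call under all 19 alternatives. With each array left out in turn, the members called numbered 2 to 3 in DKO against WT, 0 to 1 in HEBKO against WT, 1 to 2 in DKO against HEBKO, 2 to 3 in DKO against E2AKO and 0 to 1 for the interaction. In the same runs the Nlrc5 probe sets called higher numbered 15 to 17 against WT, 5 to 16 against HEBKO and 9 to 17 against E2AKO, and the shared H2-K1 and H2-D1 probe sets 0 to 2, 0 to 1 and 0 to 2. With only the groups compared in the fit, 8 Nlrc5 probe sets and 0 shared probe sets were called in DKO against HEBKO. With the replicate number as a block 0 members were called for the interaction (Mr1 -1.08, adjusted p 0.0875). Deviations of same-numbered arrays correlated at -0.29 to 0.48, over 0.1 in 10 of 13 pairs, and those of other arrays at -0.48 to 0.41, over 0.1 in 5 of 24. Within HEBKO and within E2AKO the deviations of the arrays mirror each other, so these pairs are not independent. The labels tie no numbers together, so the samples were not taken as paired, and the replicate block served as an alternative. Whether same-numbered arrays shared a batch was not tested.

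Values near 0 that changed sign were all uncalled in the fit reported, and the cause was not tested. With each array left out in turn, DKO minus WT ran from -0.00105 to 0.12 for Tap2, from -0.066 to 0.24 for Nlrc5 and from -0.025 to 0.25 for Cd1d1, and DKO minus E2AKO from -0.037 to 0.12 for Nlrc5. HEBKO minus WT ran from -0.046 to 0.12 for Tapbp and from -0.15 to 0.22 for Cd1d1. E2AKO minus WT ran from -0.15 to 0.11 for B2m, from -0.18 to 0.026 for Tap2, from -0.15 to 0.023 for Tapbp and from -0.13 to 0.18 for Nlrc5. Renewed quantile normalization gave HEBKO minus WT of -0.000567 for Tapbp and -0.00574 for Cd1d1, and E2AKO minus WT of -0.00314 for Nlrc5. The replicate block gave -0.016 for Cd1d1 in HEBKO against WT. Taken as the mean or the median of its probe sets, Nlrc5 was at 0.015 and 0.046 in HEBKO and at -0.048 and -0.098 in E2AKO, each against WT. Array weights, whose estimation stopped before its convergence tolerance, gave E2AKO minus WT of 0.055 for B2m and 0.00921 for Mr1. Over all tested genes, calls in DKO against WT numbered 1786, with 995 without WT 3 and 3655 with array weights. Calls in HEBKO against WT numbered 119, with 2 without HEBKO 1 and 515 with array weights, and in E2AKO against WT 0, with 1 under the replicate block. Calls in DKO against HEBKO numbered 477, with 194 without HEBKO 2, and in DKO against E2AKO 1191, with 585 without E2AKO 1. HEBKO against E2AKO gave 5, with 0 without E2AKO 2 and 86 under the replicate block, and the interaction gave 83, with 27 without E2AKO 1.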
